A study of Mus musculus with 8 samples.

Results

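Inhibitory SMADs and the receptors, ligands and target genes of endothelial BMP signalling were described in mouse lung after LPS, with and without tangeretin. The set held 10 genes of 24584 in the tables: the inhibitory SMADs Smad6 and Smad7, the ID proteins Id1, Id2 and Id3, the receptors Bmpr2 and Acvrl1 with the co-receptor Eng, and the ligands Bmp6 and Tgfb1. The 10 genes were chosen by their place in the pathway and by CPM values of these same samples, which had been seen, so their differences between the groups are a description and were given no test of their own. Lungs came from male ICR mice of 6 to 8 weeks, with the genotype label "widetype", and gave 4 samples per group. The LPS group received LPS intraperitoneally at 5 mg/kg, a model of septic lung injury. The LPS + Tan group received the same LPS and, 30 min earlier, intraperitoneal tangeretin at 50 mg/kg, a polymethoxylated flavone of citrus peel. Lungs were taken 12 h after LPS in both groups. Untreated lungs and lungs given tangeretin alone were not analysed here, so both groups carry LPS.

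BMP and TGF-β ligands are secreted dimers that bring together type I and type II serine/threonine kinase receptors on the cell surface. The activated type I receptor phosphorylates receptor-regulated SMAD proteins, which join Smad4 and enter the nucleus. In endothelial cells the type I receptor Acvrl1 (ALK1), the type II receptor Bmpr2 and the co-receptor Eng carry signals of BMP ligands, and inherited loss of Acvrl1 or Eng causes hereditary haemorrhagic telangiectasia, whereas loss of Bmpr2 predisposes to pulmonary arterial hypertension. Inhibitory SMADs are induced by the pathway they switch off, which makes them feedback brakes as well as readouts of signalling.

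The total count per sample lay between 38895654 and 39931970. The 10 genes held between 1823 counts, for Bmp6 in LPS replicate 3, and 45661 counts, for Bmpr2 in LPS + Tan replicate 1, and all 10 passed the count filter that left 15706 genes for the test. At the lowest of these counts, counting error alone is 2.34% of the value, so that the spread between samples, with a coefficient of variation of 6.20% to 29.2% per gene and group, set the precision. Values are given as CPM, counts scaled to a common library size after TMM scaling, and a log2 fold change above 0 means a higher value in the LPS + Tan group, with its standard error (SE). The lung label was matched by the marker genes of lung cells, and no counted marker of the 19 cell type lists was at 0 in any sample. All listed markers had counts here but 1 of the 4 venous markers, which was not used. Sftpc, the surfactant gene of alveolar type 2 cells, was 4522 ± 1085 CPM under LPS and 4859 ± 1554 CPM under LPS + Tan (SD, n = 4 each).

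All 10 genes had a higher fitted mean in the LPS + Tan group, and their median log2 fold change was 0.28, against 0.0070 over all 15706 tested genes. By edgeR's quasi-likelihood test, 6 of the 10 (Smad6, Smad7, Id3, Acvrl1, Eng and Bmp6) had an unadjusted p below 0.05 and were higher, beside 2.87% of all tested genes, and 0 were lower, beside 2.25%. Leaving out LPS replicate 2 or LPS replicate 3 left 3 of them (Smad6, Smad7 and Bmp6), and leaving out LPS + Tan replicate 1 also left 3 (Smad6, Smad7 and Id3). Id3 was lost from the 6 without LPS replicate 4, Acvrl1 without LPS + Tan replicate 2, and without LPS + Tan replicate 4 Bmpr2 was higher in place of Id3. At a Benjamini-Hochberg adjusted p below 0.05 the quasi-likelihood test called 0 of the 10 and 0 of all genes, that is 0%, with 451 genes higher and 353 lower at an unadjusted p below 0.05. These counts over all genes became 344 and 299 without LPS replicate 2, 305 and 267 without LPS replicate 3, 451 and 312 without LPS replicate 4, 265 and 204 without LPS + Tan replicate 1, 813 and 795 without LPS + Tan replicate 2, 290 and 292 without LPS + Tan replicate 3, and 750 and 718 without LPS + Tan replicate 4. DESeq2 called 2 of the 10, Smad6 and Smad7, beside 0.226% of the genes to which it gave an adjusted p, and edgeR's likelihood ratio test called the same 2, beside 0.146%. Every LPS + Tan sample lay above every LPS sample in 3 of the 10 genes (Smad7, Acvrl1 and Eng), beside 1.58% of all tested genes, and below in 0, beside 1.15%. As the genes were chosen with these values in view, nothing is read from these counts.

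**Figure D1:**
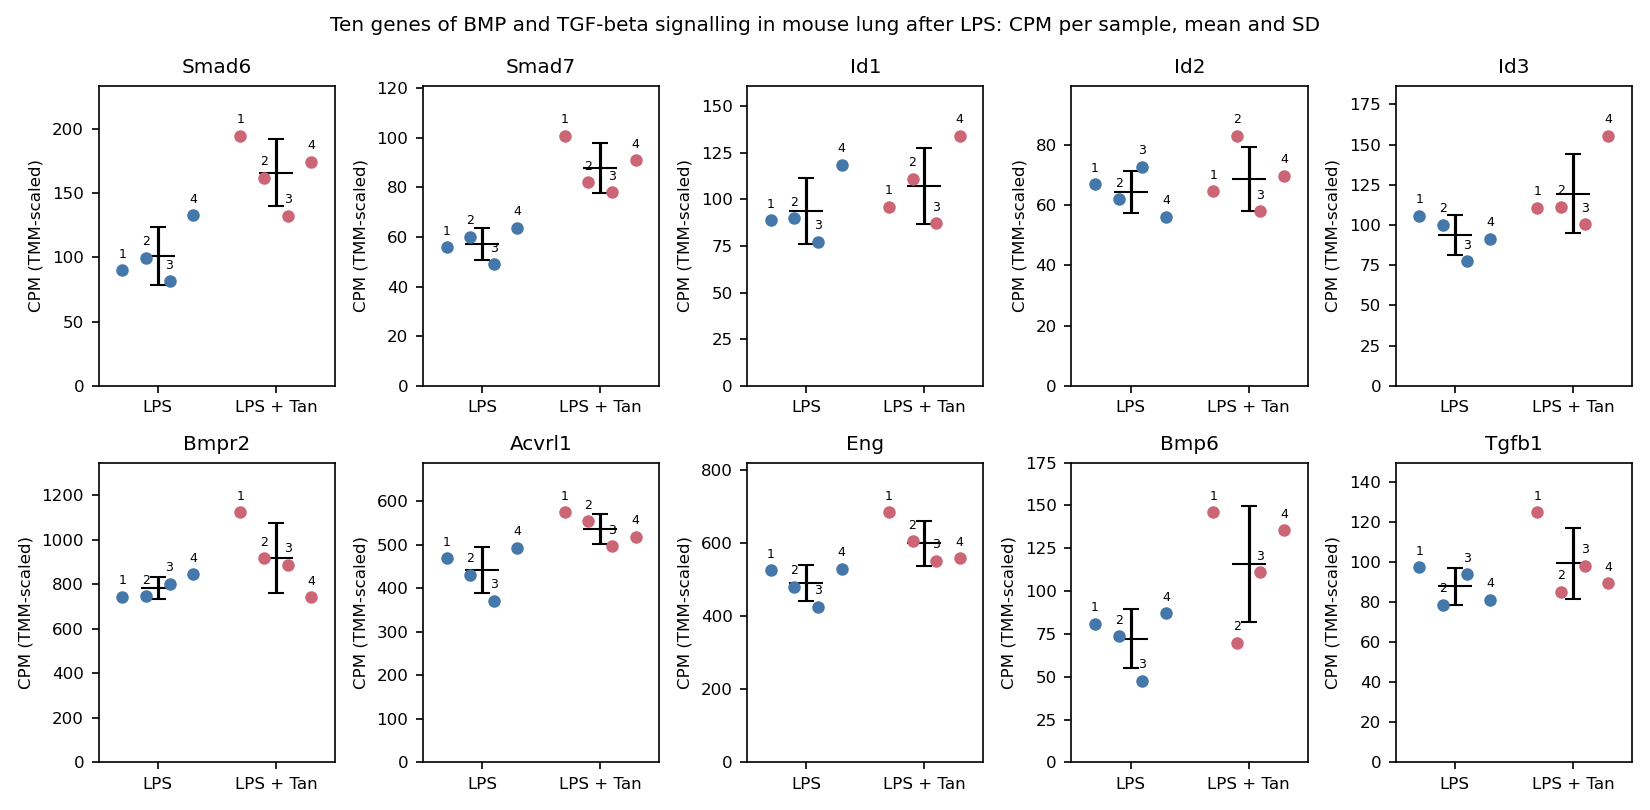
TMM-scaled CPM of the 10 genes in each sample (points, numbered by replicate), with the mean and SD of each group of 4 as black bars and each vertical axis starting at 0. All 4 LPS + Tan values lie above all 4 LPS values for Smad7, Acvrl1 and Eng, and LPS replicate 3 is the lowest of the 8 samples in 7 of the genes.

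Smad6 and Smad7 stood at the inhibitory end of the pathway. Smad6 acts mainly on BMP signalling, where it binds type I receptors and competes with Smad4 for receptor-regulated SMADs. Its CPM was 90.0, 99.7, 81.5 and 132.5 in LPS replicates 1 to 4, and 194, 162, 132.2 and 174 in LPS + Tan replicates 1 to 4. The groups met at one point only, where LPS replicate 4 exceeded LPS + Tan replicate 3 by less than 1 CPM, and the other LPS samples were all below 100 CPM. The means were 101 ± 22.3 CPM under LPS and 166 ± 26.0 CPM under LPS + Tan (SD, n = 4 each), a log2 fold change of 0.71 ± 0.16 (SE). In CPM of the total count, a scale added after seeing the data, the groups did not overlap, and the highest LPS sample was at 131 and the lowest LPS + Tan sample at 139. On that scale 5 of the 10 genes had groups that did not overlap (Smad6, Smad7, Id3, Acvrl1 and Eng), beside 2.34% of all tested genes with every LPS + Tan sample above. Total counts raised the LPS + Tan group for genes in general. The median log2 fold change of all tested genes was 0.049 with them and 0.0070 with TMM scaling. The share above 0 was 63.2% with total counts and 51.8% with TMM scaling.

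Smad7 blocks both BMP and TGF-β signalling and brings SMURF ubiquitin ligases to the activated receptor, which is then degraded. It was 55.8, 60.0, 48.9 and 63.7 CPM in LPS replicates 1 to 4, and 101, 81.9, 78.0 and 90.8 CPM in LPS + Tan replicates 1 to 4. The groups were separated by a gap between 63.7 and 78.0 CPM. The means were 57.1 ± 6.34 CPM (SD, n = 4) and 87.8 ± 10.1 CPM (SD, n = 4), a log2 fold change of 0.62 ± 0.11 (SE), whose SE was below those of Smad6 and Bmp6. In both inhibitory SMADs LPS replicate 3 was the lowest sample and LPS + Tan replicate 1 the highest, and the order of the 8 samples differed only in which of LPS replicate 4 and LPS + Tan replicate 3 ranked above the other.

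The ID proteins are helix-loop-helix proteins without a DNA-binding region that capture E proteins, and their genes are direct targets of BMP-activated SMADs. Id1 was 88.8, 89.9, 77.4 and 119 CPM in LPS replicates 1 to 4, and 96.1, 111, 87.2 and 134 CPM in LPS + Tan replicates 1 to 4. Replicate 4 was the highest sample of Id1 in either group, and the groups overlapped over most of their range. The log2 fold change of 0.19 ± 0.16 (SE) was close in size to its SE, and it was 0.11 without LPS replicate 3, 0.33 without LPS replicate 4 and 0.066 without LPS + Tan replicate 4. Id3 was 106, 100.2, 77.6 and 91.4 CPM in LPS replicates 1 to 4, and 111, 111, 100.5 and 155 CPM in LPS + Tan replicates 1 to 4. LPS + Tan replicate 4 stood high, and without it the log2 fold change of Id3 went from 0.35 ± 0.15 (SE) to 0.20. Id2, which is also abundant in innate lymphoid and myeloid cells, ranged from 56.1 to 72.6 CPM in the LPS group and from 57.9 to 82.9 CPM in the LPS + Tan group, a log2 fold change of 0.095 ± 0.12 (SE). Its direction turned to -0.0071 without LPS + Tan replicate 2, and the value was 0.034 without LPS replicate 4, 0.16 without LPS replicate 3 and 0.17 without LPS + Tan replicate 3.

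Among the receptors, Acvrl1 and Eng were the pair with the closest values across samples. Acvrl1, the endothelial type I receptor for BMP9 and BMP10, was 470, 431, 372 and 493 CPM in LPS replicates 1 to 4, and 574, 555, 497 and 518 CPM in LPS + Tan replicates 1 to 4. The groups were parted by a narrow gap between LPS replicate 4 and LPS + Tan replicate 3, 493 against 497 CPM, for a log2 fold change of 0.28 ± 0.11 (SE). Eng, which presents these ligands to Acvrl1, was 527, 481, 426 and 531 CPM in LPS replicates 1 to 4, and 684, 605, 552 and 559 CPM in LPS + Tan replicates 1 to 4. Its groups were also parted by a narrow gap, and its log2 fold change was 0.29 ± 0.11 (SE). In both genes LPS replicate 3 was lowest and LPS + Tan replicate 1 highest.

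Bmpr2, the type II receptor, behaved less evenly within the LPS + Tan group. It was 746, 746, 802 and 846 CPM in LPS replicates 1 to 4, and 1123, 918, 889 and 743 CPM in LPS + Tan replicates 1 to 4. The LPS + Tan group held both the highest and the lowest of the 8 samples, replicates 1 and 4. The log2 fold change was 0.23 ± 0.13 (SE), and it lay between 0.11 without LPS + Tan replicate 1 and 0.32 without LPS + Tan replicate 4.

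Of the ligands, Bmp6 is made by endothelial cells of several organs, and the form made in liver endothelium drives hepcidin and so controls iron uptake. Bmp6 was 80.8, 73.7, 47.6 and 87.1 CPM in LPS replicates 1 to 4, and 146, 69.9, 111 and 136 CPM in LPS + Tan replicates 1 to 4. LPS + Tan replicate 2 fell within the LPS group, and the other LPS + Tan samples were above every LPS sample. The means were 72.3 ± 17.3 CPM (SD, n = 4) and 116 ± 33.8 CPM (SD, n = 4), with a log2 fold change of 0.68 ± 0.24 (SE), the widest SE of the 10 genes. Tgfb1 encodes the TGF-β that is secreted in latent form by platelets, leukocytes and many other cells. It ranged from 78.8 to 97.4 CPM in the LPS group and from 85.3 to 125 CPM in the LPS + Tan group, where replicates 1 and 3 lay above every LPS sample. Its log2 fold change was 0.18 ± 0.13 (SE), and 0.048 without LPS + Tan replicate 1.

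The samples that were high or low recurred from gene to gene. LPS + Tan replicate 1 was the highest of the 8 samples in 7 of the 10 genes, and LPS replicate 3 was the lowest in 7. LPS replicate 2 was among the 4 highest samples in 0 of the genes, whereas LPS + Tan replicate 1 was among them in 9. Likeness was measured as the root mean square difference in log2 CPM over the 8 samples, each gene taken relative to its own mean. By this measure Acvrl1 and Eng differed by 0.046, Smad6 and Smad7 by 0.13, and Id2 and Bmp6, the least alike of the 45 pairs, by 0.58. Among the 15659 other tested genes with counts in every sample, those nearest to Smad6 were Apcdd1 at 0.10, Tedc1 at 0.15 and Xrcc3 at 0.18. The genes nearest to Smad7 were Tedc1 at 0.089, Tmem200b at 0.10 and Tbc1d31 at 0.12. Tedc1 and Xrcc3 were low, with 49 to 98 and 18 to 49 counts per sample, at which counting error alone is 0.17 and 0.26 in log2, more than their distances. How near the closest of so many genes would lie by chance was not tested. Zxdb, Egfl7 and Fkbpl were nearest to Id1, at 0.11 each, and Egfl7 is itself an endothelial gene. Banp, Papss2 and Mettl7a1 were nearest to Bmp6, at 0.10, 0.15 and 0.15, and Cybc1, Clstn1 and Tubb5 to Tgfb1, at 0.060, 0.068 and 0.069.

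Levels of different genes were compared in FPKM, which divides by gene length. In the LPS group the mean FPKM descended from Eng (136 ± 15.1) and Acvrl1 (115 ± 15.1) through Id3, Id1, Bmpr2, Id2, Tgfb1 and Smad6 to Bmp6 (23.9 ± 5.98) and Smad7 (12.7 ± 1.62; SD, n = 4 each). Neighbours in this order overlapped in range, except that Bmpr2 lay above Id2, Id2 above Tgfb1, and Bmp6 above Smad7 in every sample. In the LPS + Tan group the order was the same but for Smad6, which stood sixth at 55.9 ± 8.34 FPKM (SD, n = 4), ahead of Id2 and Tgfb1 with overlapping ranges. There, Bmp6 and Smad7 were the only neighbours whose ranges did not overlap. In mean FPKM the 3 receptor genes stood above both inhibitory SMADs in either group, although Bmpr2 and Smad6 overlapped in range in the LPS + Tan group.

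The other genes of the TGF-β and BMP pathway were taken from a list of 101 genes by role, of which 97 were in the tables and 85 were tested. By edgeR's quasi-likelihood test, 6 of the 85 had an unadjusted p below 0.05 and were higher in the LPS + Tan group, beside 2.87% of all tested genes, 1 was lower, beside 2.25%, and 0 passed at an adjusted p below 0.05. The median log2 fold change of the 85 genes was 0.017, against 0.0070 over all tested genes, with 49 genes above 0 and 36 below. By role, the higher genes were 2 of 17 ligands, 1 of 6 receptor-regulated and common SMADs and 3 of 12 transcriptional targets, with 0 of 14 receptors and co-receptors and 0 of 14 intracellular regulators. The 1 lower gene was among 22 extracellular antagonists and ligand-handling genes. Without LPS + Tan replicate 1 the higher genes numbered 3 (Tgfb2, Hey1 and Atoh8), where those of all tested genes went from 451 to 265. Without LPS + Tan replicate 2 the lower genes numbered 11, where those of all tested genes went from 353 to 795.

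**Figure D2:**
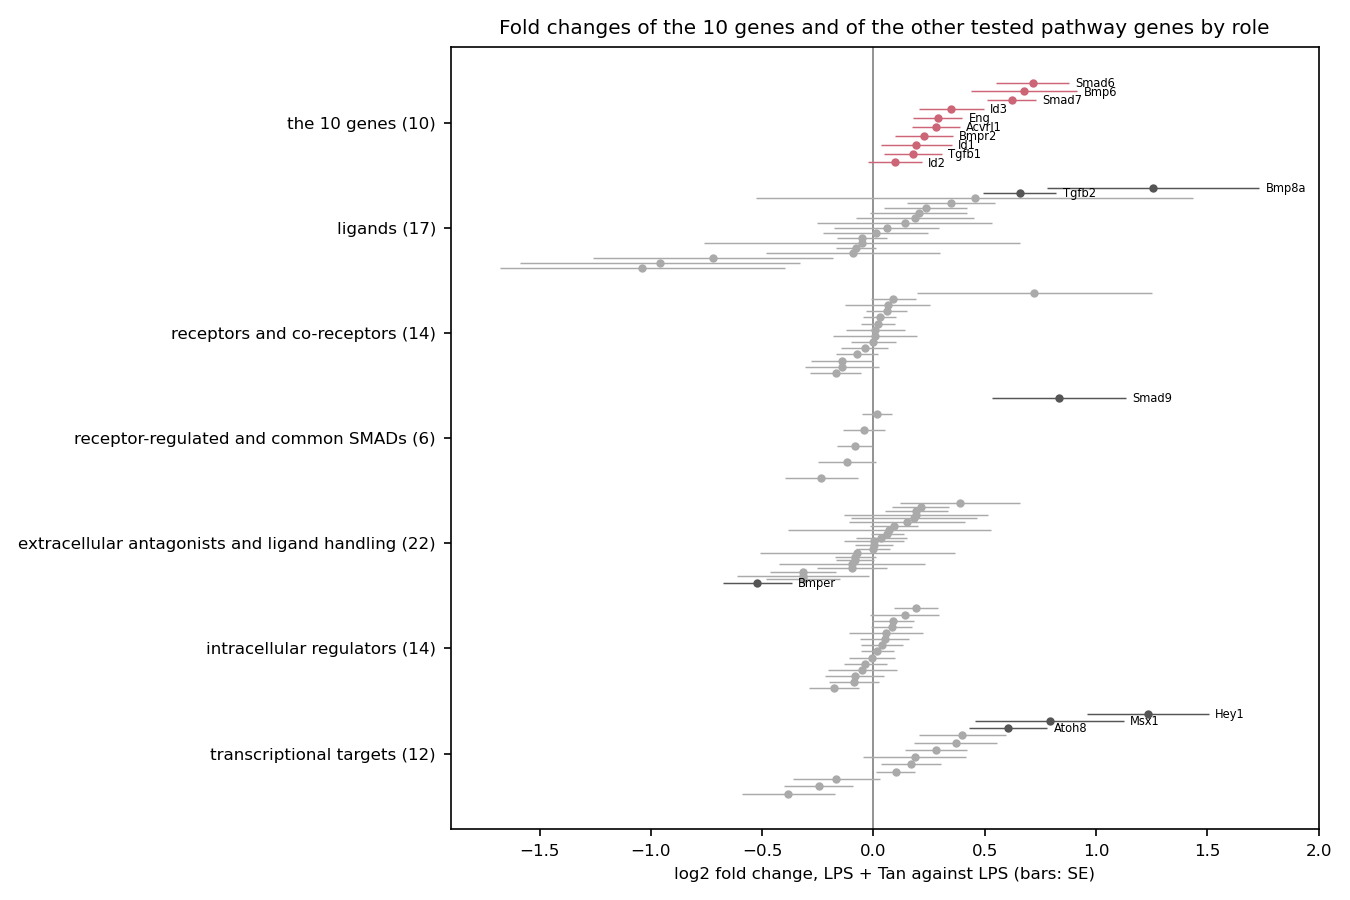
Log2 fold change of LPS + Tan against LPS (horizontal axis, points) with its SE (bars) for the 10 genes, in red, and for the 85 other tested pathway genes by role, with those at an unadjusted p below 0.05 in black and named. The 10 genes, which were chosen with these values in view, all lie above 0 on this axis, from 0.095 for Id2 to 0.71 for Smad6. The other roles lie on both sides of it.

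Hey1, a transcriptional repressor downstream of both Notch and BMP signals, was 9.49, 8.92, 8.15 and 9.15 CPM in LPS replicates 1 to 4, and 34.5, 13.3, 22.1 and 14.1 CPM in LPS + Tan replicates 1 to 4. The LPS samples lay within 2 CPM of each other and below every LPS + Tan sample, and the log2 fold change was 1.23 ± 0.27 (SE), with an adjusted p of 0.836 in edgeR. Hey1 was the 1 gene of the list that DESeq2 and the likelihood ratio test called at an adjusted p below 0.05. Tgfb2, another ligand of the TGF-β receptors, was 27.3, 20.1, 18.3 and 23.2 CPM in LPS replicates 1 to 4, and 44.8, 28.4, 36.3 and 31.0 CPM in LPS + Tan replicates 1 to 4. Its groups did not overlap either, with a log2 fold change of 0.66 ± 0.16 (SE) and an adjusted p of 0.850 in edgeR. Groups without overlap, LPS + Tan above, numbered 2 of the 85, beside 1.58% of all tested genes.

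Atoh8, a basic helix-loop-helix factor induced by Acvrl1 signalling, had means of 9.54 ± 1.68 and 14.5 ± 3.02 CPM (SD, n = 4) in the LPS and LPS + Tan groups, which overlapped. Smad9, a receptor-regulated SMAD of the BMP branch, was low, at 3.02 ± 1.09 and 5.38 ± 1.61 CPM (SD, n = 4). Msx1, a homeobox target of BMP signals, was 3.62 ± 1.31 and 6.26 ± 2.23 CPM (SD, n = 4), and the ligand Bmp8a was below 1 CPM in every sample. Their log2 fold changes were 0.61, 0.83, 0.79 and 1.26 in that order, and the adjusted p was 0.924 for Smad9, Msx1 and Bmp8a and 0.922 for Atoh8 by edgeR. The unadjusted p was above 0.05 for Smad9 without LPS + Tan replicate 1, for Bmp8a without LPS replicates 1 or 2 or LPS + Tan replicates 1 or 2, and for Msx1 without any one sample other than LPS replicate 1 and LPS + Tan replicate 2. Bmper, a secreted protein that binds BMP ligands and is made by endothelial cells, went the other way, with 43.1 ± 7.76 CPM under LPS and 30.0 ± 5.20 CPM under LPS + Tan (SD, n = 4 each). Its log2 fold change was -0.52 ± 0.15 (SE), with an adjusted p of 0.922 in edgeR, and its groups overlapped.

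The genes with the highest mean FPKM of their role had an unadjusted p above 0.05 by edgeR's quasi-likelihood test, but without LPS + Tan replicate 2 Inhbb, Tgfbr2 and Fstl1 were lower at a p below 0.05, as were 795 of all tested genes. Tgfbr2, the type II receptor for TGF-β, was at 115 ± 7.28 and 105 ± 14.9 FPKM (SD, n = 4) in the LPS and LPS + Tan groups. Smad4, the SMAD shared by both branches, was at 24.2 ± 0.538 and 24.2 ± 2.69 FPKM (SD, n = 4). Tmem100, an endothelial target of Acvrl1 signalling, was at 221 ± 31.2 and 255 ± 28.0 FPKM (SD, n = 4). Fkbp1a, which holds type I receptors inactive, had a log2 fold change of -0.085 ± 0.13 (SE), and Fstl1, a secreted follistatin-like protein, one of -0.31 ± 0.15 (SE). Fstl1 was also lower at an unadjusted p below 0.05 with DESeq2, with no count filter, without LPS replicate 2 and relative to pan-endothelial counts. Inhbb, the activin B subunit, was the most abundant ligand gene of the list and the most uneven of these, at 58.5 ± 25.3 and 30.8 ± 32.0 FPKM (SD, n = 4), so that its SD was as large as its mean in the LPS + Tan group. Inhbb was 188, 244, 419 and 165 CPM in LPS replicates 1 to 4, and 30.0, 329, 57.0 and 106 CPM in LPS + Tan replicates 1 to 4. LPS + Tan replicate 2 alone lay within the LPS group, and the log2 fold change of -0.96 ± 0.63 (SE) was -1.98 without that sample. It was -1.43 by limma-voom, at an unadjusted p below 0.05.

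Whole lung mixes many cell types, and in such samples fewer cells of a type and less RNA per cell cannot be told apart. The 12 pan-endothelial markers summed to 4721, 4149, 4877 and 4992 CPM in LPS replicates 1 to 4, and to 5091, 4765, 4887 and 4994 CPM in LPS + Tan replicates 1 to 4. The groups overlapped, LPS replicate 2 being the lowest sample, and the log2 difference was 0.078 (exact two-sided permutation test, p = 0.229; adjusted p = 0.611 over the 19 lists). The difference was 0.016 without LPS replicate 2 (exact two-sided permutation test, p = 0.600), in a set of alternatives added after seeing the data. Cdh5, the endothelial cadherin, had the highest mean CPM of the 12 over the 8 samples, with 1324 ± 215 CPM under LPS and 1193 ± 164 CPM under LPS + Tan (SD, n = 4 each). In the LPS + Tan group Pecam1 stood slightly above it, at 1230 ± 200 CPM, and per length Cldn5 was higher, at 414 ± 22.8 and 416 ± 85.1 FPKM against 322 ± 46.3 and 300 ± 42.5 FPKM for Cdh5 (SD, n = 4). Of the 12 markers, 7 had a log2 fold change above 0, beside 51.8% of all tested genes. At an unadjusted p below 0.05, 2 were higher (Kdr and Tek, the receptors for VEGF and the angiopoietins, named after their values were seen), beside 2.87% of all tested genes.

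The endothelial subtypes were taken from further lists, each said to be led by the gene with its highest mean CPM. The 5 general capillary markers summed to 2337, 1768, 2196 and 2559 CPM in the LPS samples, and to 3340, 2585, 2900 and 1897 CPM in the LPS + Tan samples, replicates 1 to 4 in each. LPS + Tan replicate 4 was low here, as for Bmpr2, and the log2 difference was 0.26 (exact two-sided permutation test, p = 0.257). It was 0.15 without LPS replicate 2, 0.14 without LPS + Tan replicate 1 and 0.41 without LPS + Tan replicate 4, with each sample left out as an alternative added after seeing the data for this and the following lists. Cd93 led this list, with a log2 fold change of 0.46 ± 0.26 (SE), and 0 of its 5 genes had an unadjusted p below 0.05. Of the 5, 4 had a log2 fold change above 0, and Gpihbp1 was below it, at -0.14 ± 0.17 (SE). The 5 aerocyte markers, led by Fibin, summed to 411 ± 44.6 CPM under LPS and 458 ± 10.5 CPM under LPS + Tan (SD, n = 4 each; exact two-sided permutation test, p = 0.0571), 4 of the 5 had a log2 fold change above 0, and Tbx2 was higher at an unadjusted p below 0.05. The log2 difference of the aerocyte sum was 0.16, and 0.11 without LPS replicate 2. Car4, the 1 of the 5 below 0, had a log2 fold change of -0.15 ± 0.20 (SE). The 5 arterial markers, led by Gja4, summed to 90.4 ± 6.85 and 111 ± 20.1 CPM (SD, n = 4), a log2 difference of 0.28 (exact two-sided permutation test, p = 0.114). Gja4 itself was 41.7 ± 9.22 and 42.1 ± 21.4 CPM (SD, n = 4), and Gja5 had a log2 fold change of -0.25 ± 0.17 (SE), the 1 of the 5 below 0. At an unadjusted p below 0.05, 2 of the 5 were higher, Sox17 and Dkk2, beside 2.87% of all tested genes. Sox17, a transcription factor of arterial endothelium, was 14.4, 12.3, 10.7 and 19.3 CPM in LPS replicates 1 to 4, and 59.7, 25.7, 37.2 and 25.1 CPM in LPS + Tan replicates 1 to 4. Its groups did not overlap, and the log2 fold change was 1.38 ± 0.29 (SE). The adjusted p of Sox17 was 0.688 in edgeR's quasi-likelihood fit, whereas DESeq2 gave 0.0017 and edgeR's likelihood ratio test 0.0073. Gpihbp1, Car4, Tbx2, Sox17 and Dkk2 were named after their values were seen. The part of these cell types in the values of the 10 genes was not tested beyond the ratios to pan-endothelial counts.

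Per 1000 counts of the pan-endothelial markers, Smad6 was 19.1, 24.0, 16.7 and 26.5 in LPS replicates 1 to 4, and 38.2, 34.0, 27.1 and 34.9 in LPS + Tan replicates 1 to 4. On the same scale Smad7 was 11.8, 14.5, 10.04 and 12.8 in the LPS samples, and 19.8, 17.2, 15.96 and 18.2 in the LPS + Tan samples. These were the 2 of the 10 genes whose groups did not overlap relative to endothelial counts, a count added after seeing the data, beside 0.490% of all tested genes with every LPS + Tan sample above. In the fit scaled to these counts 3 of the 10 (Smad6, Smad7 and Bmp6) were higher at an unadjusted p below 0.05, with 202 genes higher and 635 lower over all tested genes. Acvrl1 and Eng, which did not overlap in CPM, overlapped on this scale, with 94.6 ± 12.5 against 109 ± 7.04 for Acvrl1 and 105 ± 12.6 against 122 ± 11.02 for Eng (SD, n = 4). Bmp6 was 15.5 ± 3.85 and 23.3 ± 6.28 (SD, n = 4), and Id2 stayed nearest to equality, with 13.8 ± 1.75 and 14.0 ± 2.45 (SD, n = 4). In the fit scaled to these counts the log2 fold changes of Id1, Id3, Bmpr2 and Tgfb1 were 0.12, 0.26, 0.15 and 0.097. With TMM scaling they were 0.19, 0.35, 0.23 and 0.18.

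**Figure D3:**
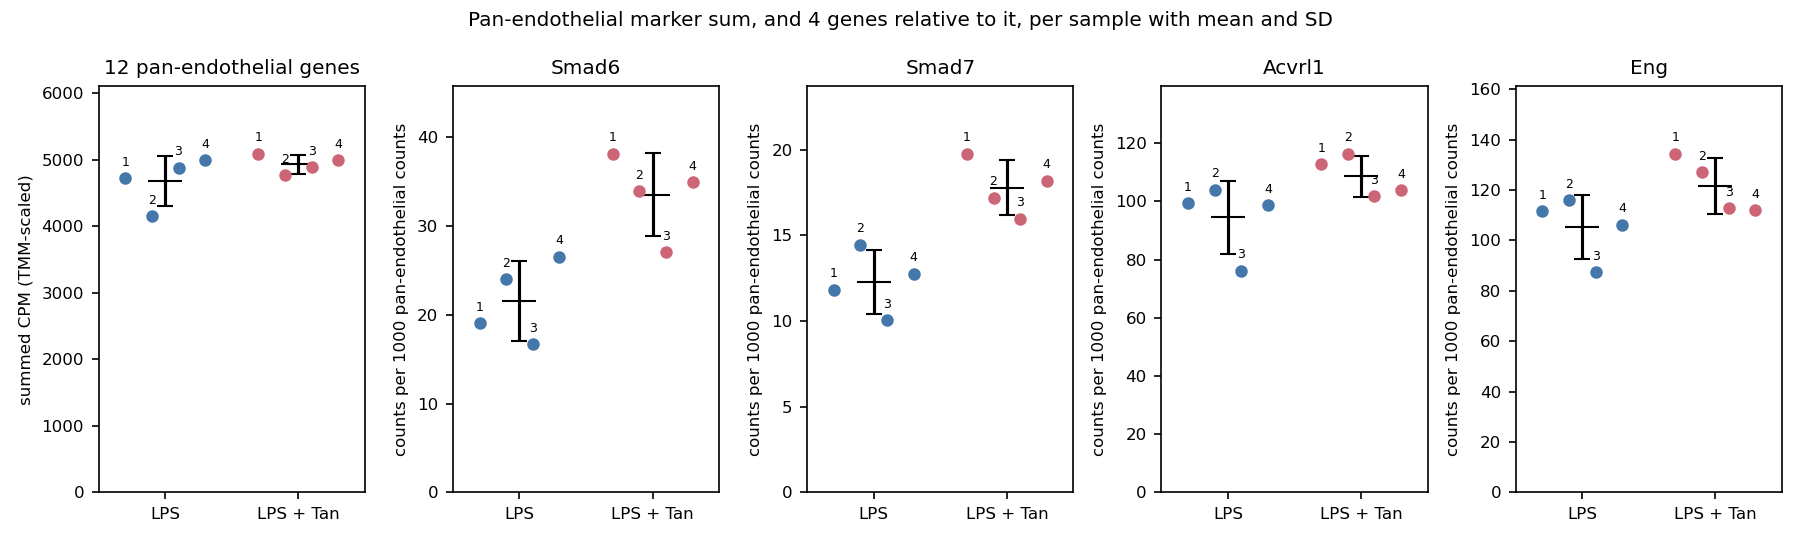
Summed TMM-scaled CPM of the 12 pan-endothelial markers (left) and counts of Smad6, Smad7, Acvrl1 and Eng per 1000 pan-endothelial counts in each sample (points, numbered by replicate), with the mean and SD of each group of 4. Relative to the endothelial markers, the LPS + Tan samples of Smad6 lie at 27.1 or more and the LPS samples at 26.5 or less.

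Lists of the other cell types also had overlapping groups. Lymphatic markers, led by Lyve1, erythroid markers, led by Hbb-bs, and platelet markers, led by Itga2b, had the lowest log2 differences, -0.47, -0.42 and -0.32. Lyve1 made up most of the lymphatic sum, with a mean of 2330 of 2574 CPM under LPS and a log2 fold change of -0.51 ± 0.23 (SE). Prox1 and Mmrn1, named after their values were seen, were at 4.83 and 35.6 CPM under LPS. Their log2 fold changes were -0.23 ± 0.19 and -0.045 ± 0.15 (SE), so the lymphatic value is mainly that of Lyve1. The lymphatic value was -0.29 without LPS replicate 3, the platelet value -0.16 without LPS + Tan replicate 1, and the erythroid value -0.26 without either of these samples and -0.69 without LPS replicate 2. Fibroblast markers, led by Pdgfra, gave -0.16, ciliated and club cell markers, led by Scgb1a1, gave -0.17, and B cell markers, led by Cd79b, gave -0.14. Cardiac muscle markers, led by Myh6, gave 0.24, pericyte markers, led by Pdgfrb, gave 0.12, and smooth muscle markers, led by Acta2, gave 0.071. The cardiac value was 0.042 without LPS + Tan replicate 3 and 0.39 without LPS + Tan replicate 2, and the pericyte value lay between 0.057 without LPS + Tan replicate 1 and 0.23 without LPS + Tan replicate 4. With single samples left out, the B cell value lay between -0.29 and -0.0028 and the ciliated and club cell value between -0.28 and -0.089, and the smooth muscle value turned to -0.065 without LPS replicate 3. Of the 5 pericyte markers, 2 were higher at an unadjusted p below 0.05, beside 2.87% of all tested genes, Cox4i2 with 13.0 ± 1.84 and 17.4 ± 3.23 CPM and Higd1b with 5.17 ± 1.95 and 9.57 ± 3.44 CPM in the LPS and LPS + Tan groups, whereas Pdgfrb was at 136 ± 18.5 and 128 ± 22.4 CPM (SD, n = 4). Of the 6 platelet markers, 1 was lower, beside 2.25%, Ppbp with 9.74 ± 1.95 and 6.09 ± 1.29 CPM (SD, n = 4), and its groups overlapped, as did those of Cox4i2 and Higd1b. These 3 genes were named after their values were seen. The venous and lymphatic lists and all other lists outside the endothelium had 0 genes at an unadjusted p below 0.05 in edgeR's quasi-likelihood test. Macrophage markers, led by Chil3, T and NK cell markers, led by Nkg7, alveolar type 1 markers, led by Ager, alveolar type 2 markers, led by Sftpc, neutrophil markers, led by S100a9, and venous markers, led by Vcam1, lay between -0.0094 and 0.049, and each of these took either sign when single samples were left out. Over the 19 lists the exact two-sided permutation p ran from 0.0571 to 1, where the smallest that 4 against 4 samples can give is 0.0286, and 0 lists had an adjusted p below 0.05.

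In the GENCODE annotation of GRCm38, Smad6 spans chr9:63953076-64022059 on the minus strand and Bmp6 chr13:38345107-38500302, Eng chr2:32646595-32682669 and Acvrl1 chr15:101128522-101145336 on the plus strand. Whether the counting used strand is not given in the sources used here, and 3 of the 10 genes share exon bases with a gene on the opposite strand. Bmp6 shares 224 bases with Txndc5, which was 161 ± 3.15 CPM under LPS and 167 ± 6.56 CPM under LPS + Tan (SD, n = 4 each), a log2 fold change of 0.051. Eng shares 61 bases with Fpgs, which was at 5.02 to 7.71 CPM, far below Eng. Acvrl1 shares 127 bases with the antisense transcript Gm16031, for which no count was used here. Without strand, reads in these bases cannot be assigned to one gene.

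Promoter sequences of 7 of the 10 genes were matched by symbol in the RefSeq table of GRCm38.p6, those of Smad6, Id2, Id3, Bmpr2, Eng, Bmp6 and Tgfb1, and Smad7, Id1 and Acvrl1 were not among them. The 250 bases before the RefSeq start were searched on both strands for GGCGCC and GCCGNCGC, GC-rich letters bound by BMP-activated SMADs, and for GTCTG, which reads as CAGAC on the other strand and is the core that Smad3 and Smad4 bind. These motifs occur in 9.59%, 6.89% and 42.2% of all 32851 promoter windows of this length. GGCGCC was found in the windows of Id2 and Bmpr2, GTCTG in those of Id3, Eng and Bmp6, and GCCGNCGC in 0 of the 7. In the GENCODE annotation the windows of Id3, Bmpr2 and Bmp6 lie wholly in exons, with 250 of 250 bases, and that of Id2 with 161 of them, all inside the annotated gene spans, whereas those of Smad6, Eng and Tgfb1 hold 0 exon bases. The windows of Smad6 and Tgfb1 held 0 of these motifs, which says only that the letters are not in these bases. Windows of an inhibitory SMAD and of a receptor gene whose groups did not overlap are shown for comparison, Smad6 at chr9:64022060-64022309 on the minus strand and Eng at chr2:32646345-32646594 on the plus strand, both directly before the annotated gene and outside annotated exons, 5′ to 3′ with the motifs in capitals. The GC content was 66.8% for Smad6 and 62.4% for Eng, against a median of 52.4% over all windows.
Smad6: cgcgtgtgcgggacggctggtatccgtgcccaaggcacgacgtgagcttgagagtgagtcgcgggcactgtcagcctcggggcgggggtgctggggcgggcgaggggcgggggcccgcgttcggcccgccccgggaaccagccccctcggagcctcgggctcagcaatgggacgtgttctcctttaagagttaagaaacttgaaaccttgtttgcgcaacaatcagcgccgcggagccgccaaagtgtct
Eng: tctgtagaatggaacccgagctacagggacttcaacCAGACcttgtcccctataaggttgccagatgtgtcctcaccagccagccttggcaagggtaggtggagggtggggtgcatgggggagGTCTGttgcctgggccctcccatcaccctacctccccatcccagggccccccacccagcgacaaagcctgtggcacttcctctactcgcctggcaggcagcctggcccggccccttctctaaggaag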

How the data were processed

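Lung RNA of 4 LPS and 4 LPS + Tan samples was sequenced on an Illumina Novaseq instrument. The methods name TRIzol and the VAHTS Universal V6 kit, whereas the labels name another extraction and library kit. The authors deposited raw read counts for 24584 genes and FPKM values. The FPKM deposited by the authors equal count over gene length and total count, as checked on 15175 genes. The submitters' processing notes name GRCm38 and mm10, while no source used here gives the aligner or the counter. The 10 members and all lists were chosen with earlier results of these data known.

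Counts were filtered with filterByExpr, TMM-scaled and fitted over all genes with edgeR 4.0.16 (quasi-likelihood) in R 4.3.3, with Benjamini-Hochberg adjustment over 15706 genes. The SE is the log2 fold change divided by the square root of F. Marker sums were compared by exact two-sided permutation over 70 arrangements. The labels do not say that each sample is a separate mouse, so p-values measure the spread between these samples. Pairs within a group differed by 7.62 to 22.4 times sampling noise, so no library was repeated. The quasi-likelihood fit was run on simulated counts with genes drawn independently, and the other steps were not tested in this way.

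Genes were named by rule: the 10 members, other pathway genes at an unadjusted p below 0.05 or with the highest mean FPKM of their role, the most abundant marker of each list, and the 3 genes most like Smad6, Smad7, Id1, Bmp6 and Tgfb1. Alternatives were the tool DESeq2 1.42.0, scaling by RLE or the upper quartile, the count filter dropped or set to 1 CPM in 4 samples, limma 3.58.1 with voom or on log2(FPKM + 1) or log2(FPKM + 0.1), the likelihood ratio test, the replicate number as a block, each sample left out, and scaling to pan-endothelial counts or to total counts, the last pair for the members' log2 fold changes and, added after seeing the data, for the counts of genes.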

Additional observations from a re-analysis of the deposited data

Results flagged for a closer look

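A single sample stood far from the other 3 of its group in 2 of 72 groups examined, which covered the 10 genes, the 7 other pathway genes named for their p and the 19 marker sums. Chance alone flags about 1 in 20 groups. The neutrophil marker sum was 3544 CPM in LPS + Tan replicate 2 and 4983 to 5263 CPM in the other LPS + Tan samples. On a log scale the gap was 0.862 of the group's range. The cardiac muscle marker sum was 174 CPM in LPS replicate 4 and 130.4 to 133 CPM in the other LPS samples. Its gap, also on a log scale, was 0.936 of the range. Among the 10 genes, LPS + Tan replicate 2 was the lowest LPS + Tan sample for Bmp6 and Tgfb1. LPS replicate 4 was the highest LPS sample for Smad6, Smad7, Id1, Bmpr2, Acvrl1, Eng and Bmp6. The part of these cell types in the values of those genes was not tested.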

How the results depend on the processing

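Over 20 alternatives for each of the 10 genes, 199 of 200 log2 fold changes were above 0. The exception was Id2 at -0.0071 without LPS + Tan replicate 2. All 200 moved by less than the spread between replicates. A single sample left out can hardly move a group mean that far, and the other alternatives refit the same samples. Nothing is therefore read from these 2 counts. The count of 6 higher members lay between 3 and 6 when single samples were left out, and was 3 relative to pan-endothelial counts, a scale added for the counts after seeing the data. It was 6 in the other settings, the replicate block and total counts included, and the count of lower members was 0 throughout. The count of other pathway genes higher, 6, lay between 3 and 9 without single samples. The 1 lower pathway gene became 2 with DESeq2, with no count filter, with limma-voom and relative to pan-endothelial counts, 4 with the replicate block, and 1 to 11 without single samples. Genes at an adjusted p below 0.05 numbered 35 with DESeq2, 23 with the likelihood ratio test and 0 to 1 without single samples, against 0 by the quasi-likelihood test. Same-numbered samples had correlations of -0.14 to 0.11 in their deviations and none was closest to its own number. The samples were therefore not treated as paired, although so few correlations cannot exclude a pairing. Over all tested genes, 451 higher and 353 lower at an unadjusted p below 0.05 became 702 and 266 by limma on log2(FPKM + 1), 614 and 283 with 0.1 in place of 1, 653 and 239 with total counts, 397 and 429 with the replicate block, 265 to 813 and 204 to 795 without single samples, and 202 and 635 relative to pan-endothelial counts, which moved the median of all genes by -0.081. The log2 difference of the pan-endothelial sum, 0.078, lay between 0.016 without LPS replicate 2 and 0.12 with total counts over 9 alternatives added after seeing the data (exact permutation p 0.0857 to 0.600). Of the other 18 marker sums, 11 kept their sign without single samples, also added after seeing the data, and 7 did not: venous (-0.22 to 0.14), smooth muscle (-0.065 to 0.21), macrophage (-0.10 to 0.21), neutrophil (-0.087 to 0.12), alveolar type 2 (-0.13 to 0.10), alveolar type 1 (-0.082 to 0.067) and T and NK cell sums (-0.12 to 0.20). The exact permutation p, unadjusted, was 0.0286, the smallest that 4 against 3 samples can give, for aerocyte markers without LPS replicate 4, erythroid markers without LPS replicate 2, and arterial and platelet markers without LPS + Tan replicate 2. Of the named pathway genes, added likewise, Smad4 turned from -0.042 to 0.00049 with total counts, and Msx1 lost its unadjusted p below 0.05 by limma-voom, by limma on FPKM and relative to pan-endothelial counts, and Bmp8a by limma-voom and with the replicate block, while Bmp8a was not tested under the filter of 1 CPM. Inhbb, at -0.96, was lower at an unadjusted p below 0.05 with the replicate block, at -1.44. The causes were not tested.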
